A study of Arabidopsis thaliana with 24 samples.

Results

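Expression of 5 Arabidopsis genes linked to anthocyanin and flavonoid synthesis was followed in germinating seeds of the pickle mutant (pkl) and of wild type, with and without uniconazole. The genes were DFR (AT5G42800), UF3GT (AT5G54060), UGT78D2 (AT5G17050), CHIL (AT5G05270) and AT4G14090, each measured by 1 probe set of an Affymetrix ATH1 array, 5 of the 13350 genes that the platform annotation names among the 22746 probe sets analysed. DFR, UF3GT, UGT78D2 and CHIL were chosen by their rise with uniconazole in wild type, seen in earlier results of these data. That comparison is therefore described without a test. For AT4G14090 it is not recorded which values chose it, so all of its differences are given without a test.

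The 24 arrays formed 4 groups of 6, which the submitters call biological replicates. The groups were pkl with uniconazole, wild type (Columbia) with uniconazole, pkl with solvent and wild type with solvent. All seeds germinated under continuous light on solidified basal medium with 0.01% methanol, the solvent, and the treated medium also held 10 nM uniconazole. The pkl allele, the age of the seeds and the number of seeds pooled per sample are not given in the sources used, and the PKL transcript was not analysed here, so it gives no check of the genotype. PICKLE is a chromatin remodelling factor of the CHD3 class that represses embryonic genes in seedlings, and uniconazole blocks gibberellin synthesis.

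Anthocyanins are red to purple pigments made from phenylalanine by a branch of flavonoid synthesis. Early enzymes, beginning with chalcone synthase, make precursors that flavonols share, and CHIL is a chalcone isomerase-like protein that lacks the isomerase's activity and assists chalcone synthase. Late enzymes commit precursors to anthocyanin. DFR, dihydroflavonol reductase, is the first of these, and sugar transferases then stabilise the pigment. UGT78D2 adds glucose to both flavonols and anthocyanidins, and UF3GT adds a further sugar to anthocyanins. The annotation lists AT4G14090 by its locus code alone, so no gene name or role is given to it here, although its locus stands in the list of late anthocyanin steps used below. In seedlings, the late genes are activated by complexes of MYB, bHLH and WD40 proteins and respond to light, sugar and stress.

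Signals are the deposited linear intensities, and log2 differences are on log2(signal + 16), an offset that understates the differences of dim probe sets. A signal of 54.9, the 95th percentile of 27 probe sets for bacterial transcripts, is called the bacterial control level. The arrays' median signals lay between 310.2 and 371.4. Of the seed genes used to check the tissue, ICL, an enzyme of oil mobilisation, had mean signals between 36255 and 39080 in the 4 groups, OLEO3, an oil-body protein, between 1384 and 4667, and PAP85, a storage protein, between 167 and 2428. The other 11 of 14 seed markers and both endosperm markers in the lists were not among the named probe sets. As a check of the treatment, 2 of the 3 gibberellin receptor genes were called higher with uniconazole in both genotypes. Over all probe sets 11.4% were called higher in pkl and 9.07% in wild type, at an adjusted p under 0.05. The gibberellin list held 9 genes, of which only these 3 were among the named probe sets. GID1A averaged 2328 ± 137 in treated and 1006 ± 55.5 in untreated pkl seeds (SD, n = 6), and 1582 ± 67.3 in treated and 753 ± 95.8 in untreated wild-type seeds. GID1B averaged 419 ± 69.1 in treated and 135 ± 44.1 in untreated pkl, and 640 ± 117 in treated and 196 ± 32.0 in untreated wild type. GID1C averaged 190 ± 22.8 in treated and 181 ± 41.5 in untreated pkl, and 170 ± 60.2 in treated and 182 ± 39.7 in untreated wild type, and did not pass in either genotype (limma adjusted p = 0.814 in pkl and 0.74 in wild type).

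One array stood apart. Wild-type uniconazole array 2 had the lowest median signal of all 24 arrays (310.2) and the highest log2 ratios of 3′ to 5′ control probe sets, a measure of RNA integrity, for GAPDH (0.45), actin (0.58) and ubiquitin (1.03). It was the lowest array of its group for 4 of the 5 genes. Where a call of the 5 genes changes without it, that is said beside the value. Other shifts of differences or overlaps without it are given only in part.

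DFR was high in every treated sample and near 100 in solvent. Its lowest, median and highest signals were 958.5, 1057 and 1190.0 in pkl with uniconazole and 440.0, 626 and 751.4 in wild type with uniconazole. They were 82.3, 131 and 156.5 in pkl with solvent and 18.0, 118 and 152.7 in wild type with solvent. All treated arrays of each genotype lay above its solvent arrays, and all treated pkl arrays lay above the treated wild-type arrays. The groups with solvent overlapped, and the value of 18.0 stood alone under its group. Since whole seeds were extracted, more cells that express a gene and more RNA in each of them cannot be told apart.

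UF3GT showed the same order of groups. Its lowest, median and highest signals were 1006.2, 1144 and 1399.0 in pkl with uniconazole, and 477.5, 710.4 and 885.4 in wild type with uniconazole. With solvent they were 115.8, 217 and 288.5 in pkl and 124.6, 175.5 and 214.5 in wild type. The treated groups overlapped neither each other nor the solvent groups, whereas the solvent groups overlapped.

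AT4G14090 separated all 4 groups. It had 1464.1, 1543 and 1843.8 as its lowest, median and highest signal in pkl with uniconazole and 476.6, 647 and 822.6 in wild type with uniconazole. With solvent it had 79.0, 126 and 164.1 in pkl and 17.7, 25.9 and 61.7 in wild type. No group overlapped its neighbour in this order, and 4 of the 6 wild-type solvent arrays were under the bacterial control level.

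UGT78D2 and CHIL were expressed above 1000 in every sample. UGT78D2 had a lowest, median and highest signal of 2143.6, 2408 and 2707.5 in pkl with uniconazole and of 1512.6, 2012 and 2359.3 in wild type with uniconazole. With solvent these were 1287.1, 1616 and 1913.9 in pkl and 1337.2, 1449 and 1805.9 in wild type. The treated pkl arrays lay above all solvent arrays of pkl, while each other pair of neighbouring groups overlapped. CHIL had 2206.5, 2414 and 2764.0 in pkl with uniconazole and 1626.1, 1903 and 2036.7 in wild type with uniconazole. With solvent CHIL had 1887.6, 2138 and 2785.2 in pkl and 1364.3, 1540.0 and 1718.1 in wild type. CHIL therefore separated the genotypes in both media, and treated and untreated pkl arrays overlapped.

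**Figure D1:**
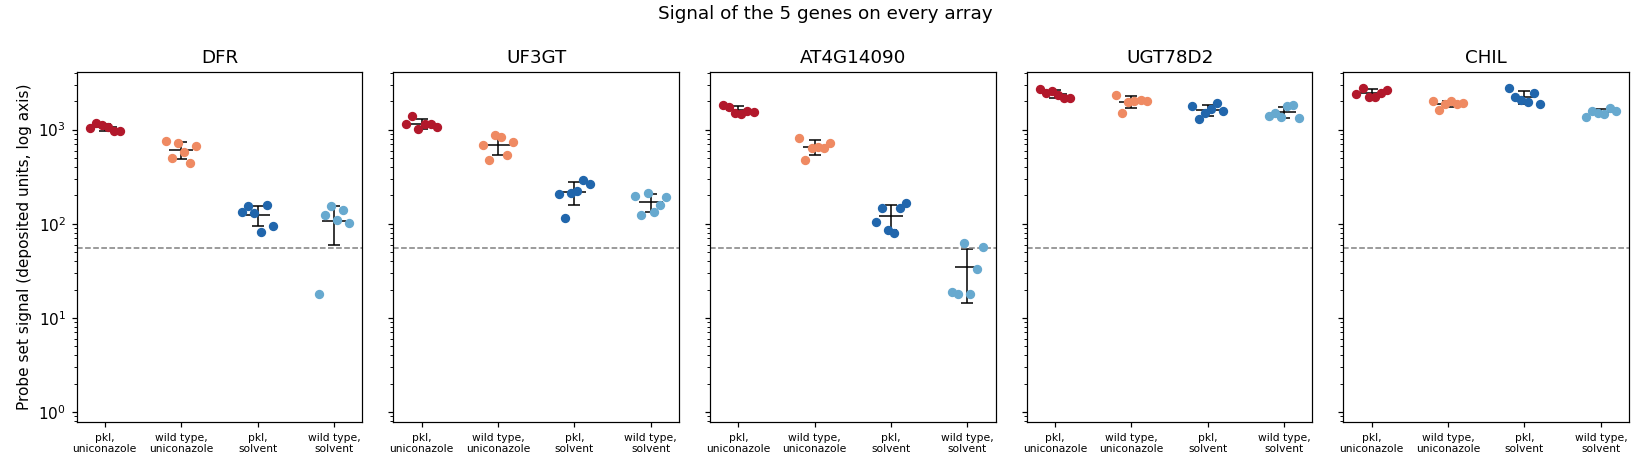
Signal of the 5 genes (log axis, deposited units) on the 6 arrays of each group, with mean and SD in black and the bacterial control level of 54.9 as a dashed line. DFR, UF3GT and AT4G14090 are higher on every uniconazole array than on any solvent array of the same genotype, while UGT78D2 and CHIL stay between 1287.1 and 2785.2.

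In wild type, the comparison that chose the genes, uniconazole against solvent asked which transcripts respond to this inhibitor of gibberellin synthesis. Gibberellin itself was not measured here. DFR averaged 610 ± 126 with uniconazole and 108 ± 48.0 with solvent (SD, n = 6), a 5.64-fold difference, and UF3GT averaged 694 ± 161 and 171 ± 36.7 in the same groups, a 4.07-fold difference. AT4G14090 averaged 658 ± 114 with uniconazole against 34.3 ± 20.1 with solvent, which is under the bacterial control level, so its difference was at least 12.0-fold. UGT78D2 differed 1.30-fold (log2 difference 0.37 ± 0.10, SE) and CHIL 1.23-fold (0.29 ± 0.08). By log2 difference DFR was the 15th and UF3GT the 32nd highest of the 22746 probe sets, UGT78D2 the 2174th and CHIL the 3140th. The log2 difference of DFR was 2.47, and 2.12 without the wild-type solvent array at 18.0, so its size rested partly on that array. Over the alternative settings it ran from 2.01 to 2.71 for DFR and from 1.68 to 2.05 for UF3GT, and ranks were not recomputed there. The log2 difference of AT4G14090 ran from 2.89 to 4.40 with the offset, so no rank is given for it. Every treated array exceeded every solvent array for DFR, UF3GT and AT4G14090, and 5 of 6 treated arrays did so for UGT78D2 and CHIL. For both genes the remaining array was wild-type uniconazole array 2, and without it the log2 difference was 0.45 for UGT78D2 and 0.34 for CHIL. Over all probe sets 9.07% were called higher, at an adjusted p under 0.05, and 7.43% lower, and 4.04% had every treated array above every solvent array. With arrays scaled to one median, 39.2% of the called probe sets were higher, against 55.0% as deposited.

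In pkl, whose arrays are not part of that wild-type comparison, uniconazole raised DFR, UF3GT and UGT78D2. The genes were chosen with earlier results of these data known, so these p-values may not be independent of the choice. DFR averaged 1057 ± 90.5 with uniconazole and 125 ± 30.9 with solvent (SD, n = 6), 8.46-fold higher, with a log2 difference of 2.96 ± 0.26 (SE, limma adjusted p = 1.64e-09). UF3GT averaged 1152 ± 135 with uniconazole and 218 ± 59.3 with solvent, 5.28-fold higher (log2 difference 2.36 ± 0.17, limma adjusted p = 6.51e-11). UGT78D2 averaged 2404 ± 224 with uniconazole and 1621 ± 223 with solvent, 1.48-fold higher (log2 difference 0.57 ± 0.10, limma adjusted p = 9.97e-05). All 6 treated arrays lay above all solvent arrays for these 3 genes.

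CHIL did not pass the test in pkl. It averaged 2447 ± 228 with uniconazole and 2226 ± 342 with solvent (n = 6, SD; log2 difference 0.14, 95% interval -0.03 to 0.31, limma adjusted p = 0.25), and none of its treated arrays exceeded all solvent arrays. AT4G14090, given without a test, averaged 1610 ± 154 with uniconazole against 121 ± 36.1 with solvent, 13.3-fold, with no overlap of the arrays. By log2 difference in pkl, AT4G14090 was the 5th, DFR the 8th and UF3GT the 27th highest of all probe sets, and UGT78D2 was the 1482nd. In pkl 3 of the 4 tested genes were higher and 0 lower, while over all probe sets 11.4% were higher and 10.6% lower. Every treated array exceeded every solvent array for 6.84% of all probe sets. Scaling to one median left 35.5% of the called probe sets on the higher side, against 51.9%, and the 3 genes passed under that scaling too.

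**Figure D2:**
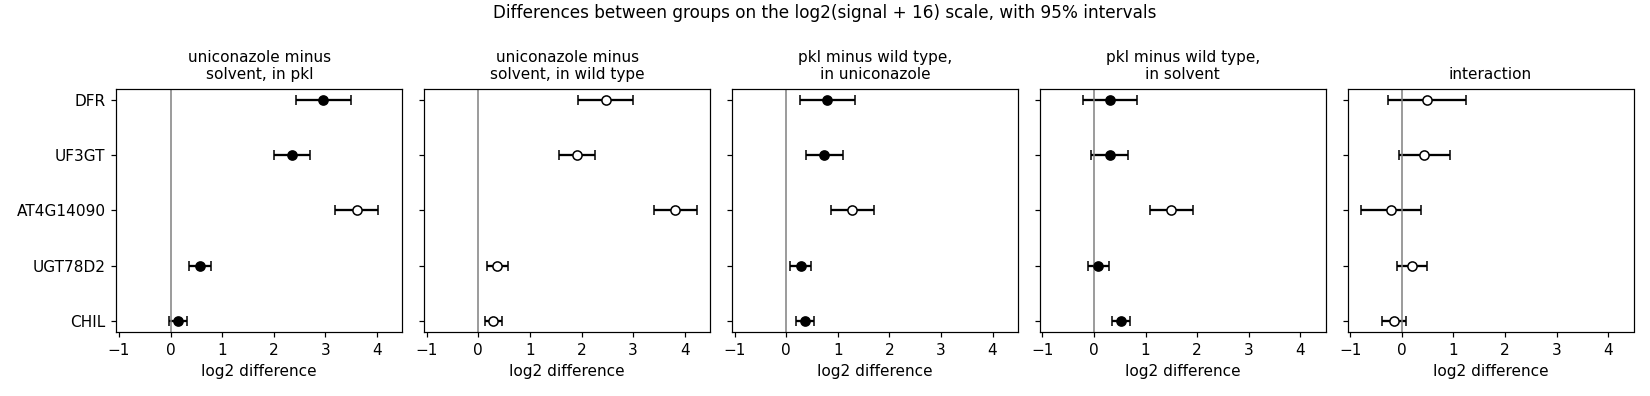
Log2 differences of the 5 genes with 95% intervals, for uniconazole against solvent in pkl and in wild type, for pkl against wild type in uniconazole and in solvent, and for the interaction. Filled points are tested values and open points are descriptions. The largest tested difference is that of DFR in pkl, 2.96, and no interaction is tested.

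Among treated seeds, pkl was compared with wild type, which asked whether the mutant differs in the presence of uniconazole. This contrast shares the treated wild-type arrays with the comparison that chose the genes. A choice for high values on those arrays tends to lower the difference, so these p-values are not independent of the choice. UF3GT averaged 1152 ± 135 in pkl and 694 ± 161 in wild type (means ± SD of 6 arrays), 1.66-fold higher in pkl (log2 difference 0.74 ± 0.17, limma adjusted p = 0.00285). CHIL averaged 2447 ± 228 in pkl and 1887 ± 144 in wild type, 1.30-fold higher (0.37 ± 0.08, limma adjusted p = 0.0019). For both genes the lowest of the 6 pkl arrays was above the highest wild-type array. Without wild-type uniconazole array 2 the log2 difference was 0.65 for UF3GT and 0.33 for CHIL, both still called.

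DFR averaged 1057 ± 90.5 in treated pkl and 610 ± 126 in treated wild type (SD, n = 6), 1.73-fold higher (log2 difference 0.80 ± 0.26, limma adjusted p = 0.0293), also without overlap. The DFR call was lost without wild-type uniconazole array 2 (log2 difference 0.75, limma adjusted p = 0.0648) and with an offset of 1 (0.82, adjusted p = 0.0772). It held in the other alternatives, with a limma adjusted p of 2.82e-04 when only the groups compared were fitted. Without the wild-type solvent array at 18.0, which lies outside this contrast, the limma adjusted p was 3.48e-04. UGT78D2 averaged 2404 ± 224 in treated pkl and 1987 ± 273 in treated wild type (log2 difference 0.28, 95% interval 0.07 to 0.49), and 4 of 6 pkl arrays exceeded all wild-type arrays. Its limma adjusted p of 0.0532 just missed the threshold, and over the alternatives it ranged from 0.0291 to 0.209. Without wild-type uniconazole array 2 the log2 difference of UGT78D2 was 0.20 (limma adjusted p = 0.161). AT4G14090, given without a test, averaged 1610 ± 154 in treated pkl and 658 ± 114 in treated wild type, 2.45-fold.

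Thus 3 of the 4 tested genes were higher and 0 lower in treated pkl, where 9.87% of all probe sets were higher and 8.69% lower, and where all mutant arrays exceeded all wild-type ones for 4.95%. With arrays scaled to one median 35.7% of the called probe sets were higher, against 53.2%. DFR, UF3GT and CHIL passed under that scaling as well.

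With solvent, pkl differed from wild type in CHIL and not detectably in the other tested genes. This contrast shares the wild-type solvent arrays with the comparison that chose the genes. A choice for low values on those arrays tends to raise the difference, so the p-values, that of CHIL included, are not independent evidence of it. CHIL averaged 2226 ± 342 in pkl and 1536 ± 116 in wild type (means ± SD of 6 arrays), 1.45-fold higher with no overlap (log2 difference 0.52 ± 0.08, limma adjusted p = 5.96e-05). UGT78D2 averaged 1621 ± 223 in pkl and 1529 ± 214 in wild type (log2 difference 0.08, 95% interval -0.12 to 0.29, limma adjusted p = 0.704). AT4G14090, without a test, averaged 121 ± 36.1 in pkl and 34.3 ± 20.1 in wild type. Measured from the bacterial control level, above the wild-type mean, the difference was at least 2.21-fold, and no arrays overlapped.

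DFR averaged 125 ± 30.9 in pkl and 108 ± 48.0 in wild type with solvent (log2 difference 0.31, 95% interval -0.22 to 0.84, limma adjusted p = 0.527). Its sign rested on the wild-type array at 18.0, without which the log2 difference was -0.03. UF3GT averaged 218 ± 59.3 in pkl and 171 ± 36.7 in wild type (log2 difference 0.31, 95% interval -0.05 to 0.66, limma adjusted p = 0.298). Without pkl solvent array 2, at 115.8, the UF3GT difference was 0.46 and passed the threshold (limma adjusted p = 0.0468). Of the 4 tested genes 1 was higher and 0 lower, while 6.78% of all probe sets were higher and 4.97% lower, and 3.71% had all mutant arrays above all wild-type ones. Scaling to one median put 44.0% of the called probe sets on the higher side, against 57.7%, and CHIL passed under that scaling too.

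Whether uniconazole acted differently in the genotypes is the interaction, the uniconazole effect in pkl minus that in wild type. The genes were chosen for a high effect in wild type, which is subtracted here, and this tends to lower their interaction. It is therefore described without a test. The log2 interaction was 0.49 ± 0.36 for DFR, 0.44 ± 0.24 for UF3GT, 0.20 ± 0.14 for UGT78D2 and -0.15 ± 0.12 for CHIL (SE). It rested partly on single arrays. For DFR it was 0.83 without the wild-type solvent array at 18.0, for UF3GT 0.28 without pkl solvent array 2, and for UGT78D2 0.12 without wild-type uniconazole array 2 and 0.13 without pkl solvent array 2. Over all probe sets 0.141% were called. On the linear scale the gain with uniconazole was 932 in pkl and 501 in wild type for DFR, and 934 in pkl and 523 in wild type for UF3GT. For AT4G14090 the gain was 1489 in pkl and 624 in wild type, while its log2 interaction was -0.21 and turned to 0.31 with an offset of 64.

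Beyond these 5, the lists of pathway genes held 67 genes in 8 groups, of which 13 had a probe set of their own among the named ones, the 5 included. No gene of the phenylpropanoid entry steps or of the activators was among them. CHIL was the 1 gene of 5 from the early steps, and 4 of the 10 late-step genes were named (DFR, UF3GT, AT4G14090 and AT5MAT). Chalcone synthase, anthocyanidin synthase and the activators were not analysed by name here. That does not mean that the array lacks them, since the annotation does not list 8730 probe sets. In pkl 3 of the other 8 genes rose with uniconazole and 0 fell, where 11.4% of all probe sets were higher and 10.6% lower, with a median log2 difference of 0.44 against 0.02 over all probe sets. In wild type 2 of the 8 rose and 0 fell, where 9.07% of all probe sets were higher and 7.43% lower, with a median of 0.07 against -0.02. Between the genotypes 0 of the 8 passed (limma) in either medium, where 9.87% of all probe sets were higher and 8.69% lower in uniconazole, and 6.78% higher and 4.97% lower in solvent. At an unadjusted p under 0.05 were AT5MAT and HCT in uniconazole and UGT80B1 in solvent.

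AT5MAT (AT3G29590), which adds a malonyl group to anthocyanins, was the other named gene of the late-step list. Its lowest, median and highest signals were 315.7, 346 and 400.9 in pkl with uniconazole and 81.9, 100 and 121.1 in pkl with solvent. In wild type they were 137.1, 255 and 371.2 with uniconazole and 71.3, 106 and 217.8 with solvent. The gene rose 3.46-fold in pkl without overlap (log2 difference 1.65 ± 0.20, SE, limma adjusted p = 5.16e-07) and 2.21-fold in wild type (1.06 ± 0.20, limma adjusted p = 3.82e-04). In wild type 5 of 6 treated arrays exceeded all solvent arrays, and the overlap came from wild-type uniconazole array 2, at 137.1. HCT, a transferase of the lignin branch, averaged 2399 ± 163 with uniconazole and 1483 ± 147 with solvent in pkl (SD, n = 6; log2 difference 0.69 ± 0.08, limma adjusted p = 2.04e-07), and 2132 ± 193 with uniconazole and 1434 ± 193 with solvent in wild type (0.57 ± 0.08, limma adjusted p = 6.92e-06).

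Of the 4 named genes in the flavonol list, UGT78D2 and AT1G06000 were higher in pkl with uniconazole, where 11.4% of all probe sets were. In wild type, where 9.07% were, 0 of the 3 other than UGT78D2 passed. UGT78D1, a flavonol rhamnosyltransferase gene close to UGT78D2, averaged 2773 ± 272 with uniconazole and 3101 ± 426 with solvent in pkl (SD, n = 6; log2 difference -0.15, 95% interval -0.41 to 0.10, limma adjusted p = 0.446). In wild type it averaged 2559 ± 608 with uniconazole and 2773 ± 430 with solvent (log2 difference -0.13, 95% interval -0.39 to 0.12, limma adjusted p = 0.543). AT1G06000 averaged 4473 ± 321 with uniconazole and 3866 ± 402 with solvent in pkl (0.21 ± 0.07, limma adjusted p = 0.0388), and in wild type its difference of 0.13 did not pass (limma adjusted p = 0.271). UGT78D3, a flavonol arabinosyltransferase gene, and BAN, the anthocyanidin reductase gene of seed coat tannins, had means under the bacterial control level in all 4 groups, the highest being 32.9 for UGT78D3 and 14.5 for BAN. UGT80B1, a sterol glucosyltransferase gene needed for normal seed coats, averaged between 515 and 600 in the 4 groups. TRY, a small MYB repressor, averaged 202 ± 67.8 with uniconazole and 121 ± 40.8 with solvent in pkl (log2 difference 0.67, 95% interval 0.15 to 1.19, limma adjusted p = 0.0606).

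**Figure D3:**
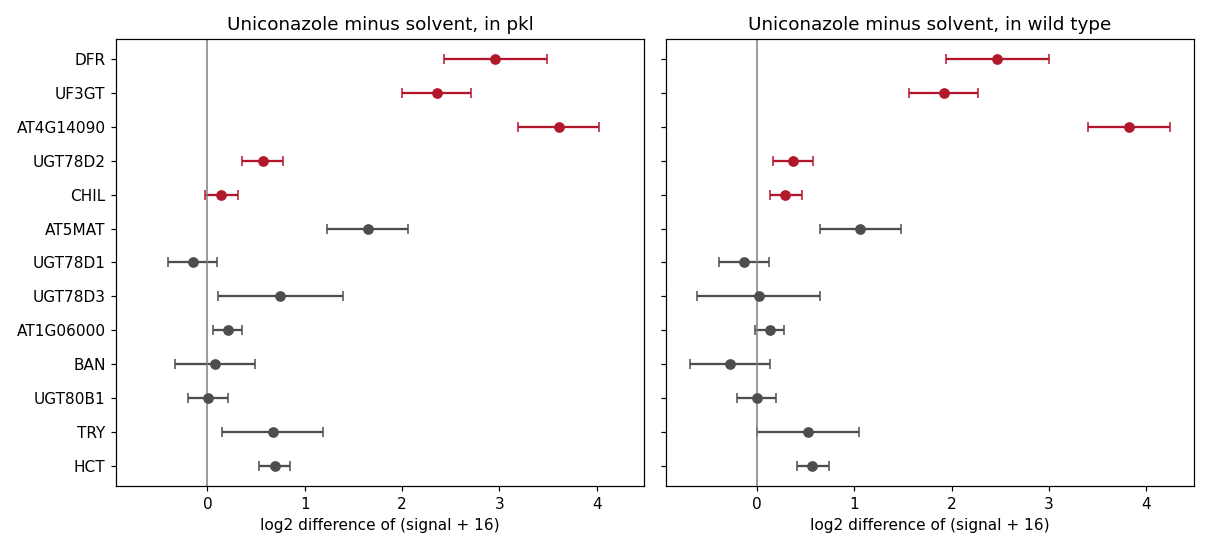
Log2 differences between uniconazole and solvent with 95% intervals in pkl (left) and wild type (right), for the 5 genes in red and the 8 other named pathway genes in grey. Of the grey genes AT5MAT has the highest difference (1.65 in pkl, 1.06 in wild type), while UGT78D1 (-0.15 and -0.13) and UGT80B1 (0.01 and -0.00) lie near 0.

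The seed markers OLEO3 and PAP85 moved with treatment too. OLEO3 averaged 4667 with uniconazole and 1384 with solvent in pkl (log2 difference 1.75) and 3827 with uniconazole and 2068 with solvent in wild type (0.89). PAP85 averaged 2428 with uniconazole and 1000 with solvent in pkl (1.27), and 304 with uniconazole and 167 with solvent in wild type (0.79). ICL, the other named seed marker, had differences of -0.00 in pkl and -0.07 in wild type. Between genotypes PAP85 was 7.99-fold higher in pkl in uniconazole and 5.99-fold higher in solvent. OLEO3 was 1.22-fold higher in pkl in uniconazole (limma adjusted p = 0.0357), and in solvent it was lower in pkl (log2 difference -0.57, limma adjusted p = 1.52e-04). The part of such differences between seeds in the results for the 5 genes was not tested.

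Measures of RNA integrity also differed in their means, although treated and untreated arrays of each genotype overlapped. The log2 ratio of 3′ to 5′ GAPDH probe sets averaged 0.36 ± 0.06 in treated and 0.26 ± 0.08 in untreated wild type (SD, n = 6), against 0.29 ± 0.05 in treated and 0.23 ± 0.06 in untreated pkl. The actin ratio averaged 0.332 ± 0.173 in treated and 0.251 ± 0.183 in untreated wild type, and 0.312 ± 0.115 in treated and 0.294 ± 0.033 in untreated pkl. For ubiquitin the means were 0.797 in treated and 0.702 in untreated wild type, and 0.768 in treated and 0.630 in untreated pkl. With the GAPDH ratio as a covariate, the uniconazole effect in pkl was 2.90 for DFR, 2.43 for UF3GT and 0.63 for UGT78D2 on the log2 scale, each still called. In wild type it was 2.38, 2.05 and 0.47. The corresponding values without the covariate were 2.96, 2.36 and 0.57 in pkl and 2.47, 1.92 and 0.37 in wild type. Between treated pkl and treated wild type, the covariate gave 0.86 for DFR, 0.66 for UF3GT and 0.36 for CHIL, each still called. The limma adjusted p of UF3GT there was 0.0183, against 0.00285, and that of UGT78D2 was 0.209, against 0.0532. Over all probe sets 3253 were called in that contrast, against 4222.

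The probe sets most like each gene were ranked by Pearson's r of log2(signal + 16) over the 24 arrays, among 10217 others with 1 gene and a mean above the bacterial control level. These values are descriptions, since the arrays share the 4 group means. Most like DFR were AT1G13930 (r = 0.947), AT1G30515 (0.946), AT4G14090 (0.943), AT1G48280 (0.940), AT4G30650 (0.939) and AT4G10390 (0.938). AT1G13930 averaged 10109 ± 1133 in pkl with uniconazole, 7065 ± 650 in wild type with uniconazole, 2288 ± 90.7 in pkl with solvent and 2468 ± 162 in wild type with solvent. Like DFR it was high in both treated groups, and its solvent means lay close together.

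The other genes had partly different neighbours. Most like UF3GT were AT1G54730 (r = 0.965), AT1G13930 (0.959) and AT4G36700 (0.959), and most like AT4G14090 were GID1A (0.960), AT1G62290 (0.957) and AT4G36700 (0.957). AT4G36700 averaged 5392 ± 548 in pkl with uniconazole, 2526 ± 550 in wild type with uniconazole, 772 ± 177 in pkl with solvent and 522 ± 112 in wild type with solvent. The nearest to UGT78D2 was AT5MAT (0.880), followed by AT1G54730 (0.874) and AT4G30320 (0.870). CHIL was nearest to AT5G46780 (0.907), APS4 (0.899) and AT3G02900 (0.890). AT5G46780 averaged 556 ± 56.6 in pkl and 264 ± 51.8 in wild type with uniconazole, and 468 ± 55.6 in pkl and 170 ± 28.3 in wild type with solvent.

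The 5 genes were correlated over all arrays, CHIL less than the others, and much less within groups. Over the 24 arrays the 10 pairs had Pearson's r between 0.54 (UF3GT and CHIL) and 0.95 (UF3GT and AT4G14090), with a median of 0.81. With each group's mean subtracted, r lay between -0.07 and 0.47 with a median of 0.28, and 8 of 10 pairs were above 0. The highest was that of DFR and CHIL (0.47), and DFR and UF3GT, at 0.91 over all arrays, had the lowest, -0.07 (0.10 without the wild-type solvent array at 18.0). The pairs with CHIL were at 0.65 or lower over all arrays. DFR, UF3GT, UGT78D2 and CHIL were chosen for a rise with uniconazole in wild type. That choice by itself tends to make r over all arrays positive. All pairs also share the arrays and their scaling, and these correlations are descriptions.

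**Figure D4:**
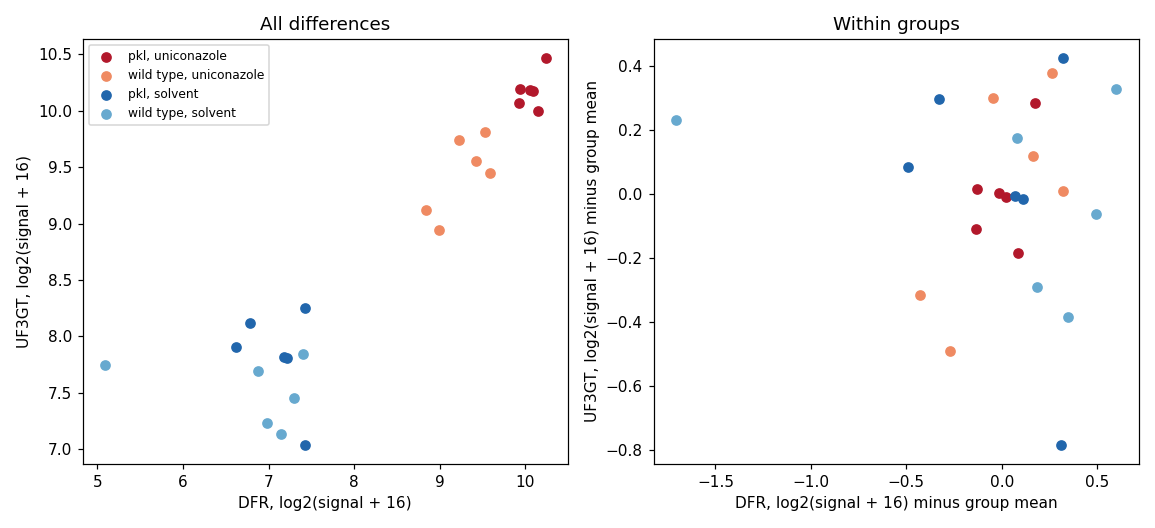
UF3GT against DFR on the 24 arrays, as log2(signal + 16) on the left and with the mean of each group subtracted on the right, coloured by group. The treated and the solvent arrays form separate clouds on the left (r = 0.91 over all arrays), and no common slope is seen within groups on the right (r = -0.07).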

How the data were processed

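RNA of germinating seeds was hybridised to 24 ATH1 arrays, 6 in each of 4 groups taken from the sample titles. The deposited table holds linear intensities per probe set, made with MAS5, per the submitters' processing notes. Its version and settings, the genome build and scan dates are not given in the sources used. Every array had the same trimmed mean (1000.1), so the authors had scaled the arrays.

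Of 22810 probe sets, 64 controls were left out. Genes came from GEO's platform annotation, with symbols updated through RefSeq for 13436 of 13513 probe sets with 1 gene. A further 503 had several genes and were not named, and 8730 were not listed. Pathway lists, 67 genes, came from general knowledge. 2 of their genes share a probe set and were left out. Members and lists were chosen with earlier results of these data known.

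Log2(signal + 16) values of all 4 groups entered 1 limma fit (limma 3.58.1 in R 4.3.3, lmFit, then eBayes with the variance trend, with 20 degrees of freedom left). The same fit was also run on simulated data, with an outcome not reported here. P-values are two-sided and adjusted by Benjamini-Hochberg over 22746 probe sets within a contrast, with a threshold of 0.05. A fold is the ratio of mean signals. Where 1 mean was at or under 54.9 it is the brighter mean over 54.9, and where both were, none is given. No p is given for the 5 genes in the wild-type uniconazole effect, which chose 4 of them, or in the interaction, which contains it. Named were the 5 genes, the pathway genes with a named probe set, and the 6 probe sets most like DFR and the 3 most like each other gene. Alternatives changed the offset, scaling, low-signal filter, groups in the fit, replicate block, a GAPDH covariate, the variance trend and, chosen after seeing the data, single arrays. The number of arrays limits the precision.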

Additional observations from a re-analysis of the deposited data

Results flagged for a closer look

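In each group of 6 arrays, the lowest and the highest value of each gene were checked for a gap to the nearest other array above Dixon's critical share of the group's range, on the log2 scale. Chance puts about 1 in 20 such groups past this limit, and 2 of the 20 checked were past it. DFR had a signal of 18.0 on wild-type solvent array 1, where the next lowest array of the group had 101.7, a gap of 0.775 of the range. UF3GT had 115.8 on pkl solvent array 2, where the next lowest had 208.2, a gap of 0.634 of the range. Both arrays belong to solvent groups, and the differences between pkl and wild type in solvent that rest on them are given above with and without them. So is the wild-type uniconazole difference of DFR. The uniconazole effect of UF3GT in pkl was 2.20 without pkl solvent array 2, against 2.36, and was still called.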

How the results depend on the processing

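Of 295 recomputed values of the 5 genes over 12 alternatives, 279 kept their direction and side of the threshold, or moved by less than the spread between replicates. Part of this count was fixed beforehand. Values without a test were judged by the log2 difference, which the low-signal filter and the variance trend, among others, cannot move. The interaction of the tested genes was counted by its side of the threshold. The uniconazole effect in pkl kept its calls for DFR (2.58 to 3.11, log2), UF3GT (2.13 to 2.44) and UGT78D2 (0.49 to 0.63). CHIL kept its calls between pkl and wild type in solvent (0.47 to 0.53) and in uniconazole (0.29 to 0.38), as did UF3GT in uniconazole (0.65 to 0.76). Other differences between pkl and wild type changed. Leaving out single arrays, 3 in turn and chosen after seeing the data, gave -0.03 to 0.31 for DFR and 0.31 to 0.46 for UF3GT in solvent, and 0.75 to 0.80 for DFR and 0.20 to 0.28 for UGT78D2 in uniconazole. With an offset of 1 DFR in uniconazole was 0.82 (limma adjusted p = 0.0772). UGT78D2 in uniconazole, at 0.28, passed with quantile normalization (limma adjusted p = 0.0448), a low-signal filter (0.0423), only the groups compared (0.0465) and the replicate block (0.0291). It also passed without pkl solvent array 2, which lies outside that comparison (limma adjusted p = 0.0388). The replicate block changed no other call of the 5 genes. Over all probe sets it called 5342 for uniconazole in pkl, against 4999, and 4128 for uniconazole in wild type, against 3755. For pkl against wild type it called 4666 in uniconazole, against 4222, and 3037 in solvent, against 2672. Same-numbered arrays of different groups had a mean correlation of deviations of 0.028 over 36 pairs, 7 of them over 0.1, against -0.006 over 180 pairs of other numbers, 10 of them over 0.1, and 9 of 24 arrays correlated best with their own number. The sample titles number the arrays of each group as sets but do not say whether a number marks a shared origin. Relative to their number, same-numbered pairs were over 0.1 more often than the other pairs. Each array had 6 numbers that it could correlate best with. Whether some numbers mark a shared origin was not tested. The numbers were not taken as pairs in the main fit. For AT4G14090 the log2 interaction was -0.63 with an offset of 1 and 0.31 with an offset of 64, against -0.21, and its wild-type uniconazole difference was 4.40 and 2.89. Over all probe sets the interaction called 32, against 20 without the variance trend and 19 to 22 without single arrays, and uniconazole in wild type called 3755, against 2460 with the GAPDH covariate. The causes were not tested. Signals of AT4G14090 in wild type with solvent lay near the bacterial control level, which limits its fold differences.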
